A study of Mus musculus with 116 samples.

Results

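RNA libraries made from pools of 10 cells were set against libraries made from pools of 3 cells of C10, a mouse lung line that the labels describe as alveolar type II epithelial cells, the surfactant-making cells of the air sacs. The 2 groups held 6 libraries each, and these 12 were chosen by their titles alone from the 116 libraries of the series. The titles give the number of cells and the replicate numbers 1, 2, 5, 6, 9 and 10 in both groups. All libraries came from nanoSPLITS, a method that holds the lysate of a few cells in a nanodroplet and divides the droplet, so that one portion can go to RNA sequencing and the other to protein measurement. The cells of both groups were grown under standard conditions without treatment, and the labels name no genetic change in either. The labels do not say which portion of a droplet was sequenced, how the cells were pooled or whether the pools came from separate cultures, so the p-values below measure only the spread between these libraries, which may be technical. The comparison asks which genes gain detection, and which vary less between libraries, when more cells are averaged.

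A gene's mRNA is often made in bursts, and a cell sampled between bursts can hold few copies of it or none. Genes of the cell cycle are on in some cells of a growing culture and off in others, whereas ribosomal proteins and respiratory chain subunits are kept at high and steady levels. Reverse transcription captures only part of a cell's mRNA and PCR then copies what was captured, so a scarce transcript can be missed altogether in a small lysate. A pool carries the average of its cells, and for independent cells the variance of an average falls in proportion to the number of cells in it, which from 3 to 10 cells is a ratio of 0.3.

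The 3-cell libraries held 6889508 to 14018116 gene counts and the 10-cell libraries 8313314 to 14778988. Levels are given as CPM, the counts of a gene per 1000000 gene counts of its library. Reads were copied by PCR and carry no molecular identifiers, so detection limits cover counting error only. Mitochondrial genes took 5.02% to 16.7% of counts with 3 cells and 6.83% to 17.8% with 10 cells, and the library numbered 1 was the highest of both groups. Markers of the labelled cell type were scarce in both groups. Of 12 alveolar type II markers, 9 had a count in any of the 12 libraries. Per library, 2.83 ± 1.94 (SD, n = 6) were detected with 3 cells and 3.50 ± 1.05 (SD, n = 6) with 10 cells. Their summed level was 0.290 to 32.5 CPM with 3 cells and 6.01 to 54.9 CPM with 10 cells. The surfactant genes Sftpa1 and Sftpc had no counts in any of the 12 libraries, which allows at most 4.35e-05% of the counts of the smallest one. The summed level of 18 mesenchymal markers, among them Vim and Fn1, was 3958 to 10178 CPM with 3 cells and 5279 to 9900.1 CPM with 10 cells, and that of 15 epithelial markers was 1.07 to 16.3 CPM with 3 cells and 5.69 to 121 CPM with 10 cells. The cells are therefore called by their line name only.

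More genes were detected in pools of 10 cells. With 3 cells, 8933 to 11545 genes had at least 1 count (median 10258), and with 10 cells 11477 to 13990 (median 12986). The 10-cell library with the fewest genes, replicate 1, lay just below the 3-cell library with the most, replicate 6, and the other 5 of the 10-cell libraries lay above every 3-cell library. The means were 10212 ± 936 and 12763 ± 991 (SD, n = 6 each), a difference of 2550.5 genes or 25.0% (exact permutation test, two-sided, p = 0.00433). When every library was thinned to the total of the smallest one, the difference was 2501 genes and the groups no longer overlapped (exact permutation test, two-sided, p = 0.00216, the smallest that 6 against 6 libraries allow).

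The gain differed with how strongly a gene is expressed in a C10 cell, as judged in 46 C10 single-cell libraries that belong to neither group. Genes at 1000 CPM or more in single cells, 130 in all, were detected in every one of the 12 libraries. Genes at 100 to 1000 CPM gained 2.24%, from 1759 ± 28.4 to 1798 ± 3.27 per library (SD, n = 6 each; exact permutation test, adjusted p = 0.00974). Genes at 10 to 100 CPM made up the largest number gained, from 4367 ± 393 to 5223 ± 262 (exact permutation test, n = 6 each, adjusted p = 0.00866), or 19.6% more. The relative gain was larger for scarcer genes: 35.2% at 1 to 10 CPM, 40.8% above 0 and up to 1 CPM, and 87.9% for genes with no count in any of the 46 single cells (exact permutation tests, n = 6 each, adjusted p = 0.00649, 0.0104 and 0.00649). In that last class the means were 328 ± 81.8 and 616 ± 176 genes (SD, n = 6 each), of 3026 that had a count in any pool. These percentages are of the 3-cell mean, so their order depends on how many genes were already seen. At 100 to 1000 CPM, 1759 of 1802 were, which left little to gain. As a share of the genes still missing with 3 cells the order was the reverse: 4367 rose to 5223 of 5706 at 10 to 100 CPM, and 2042 to 2762 of 3885 at 1 to 10 CPM.

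**Figure D1:**
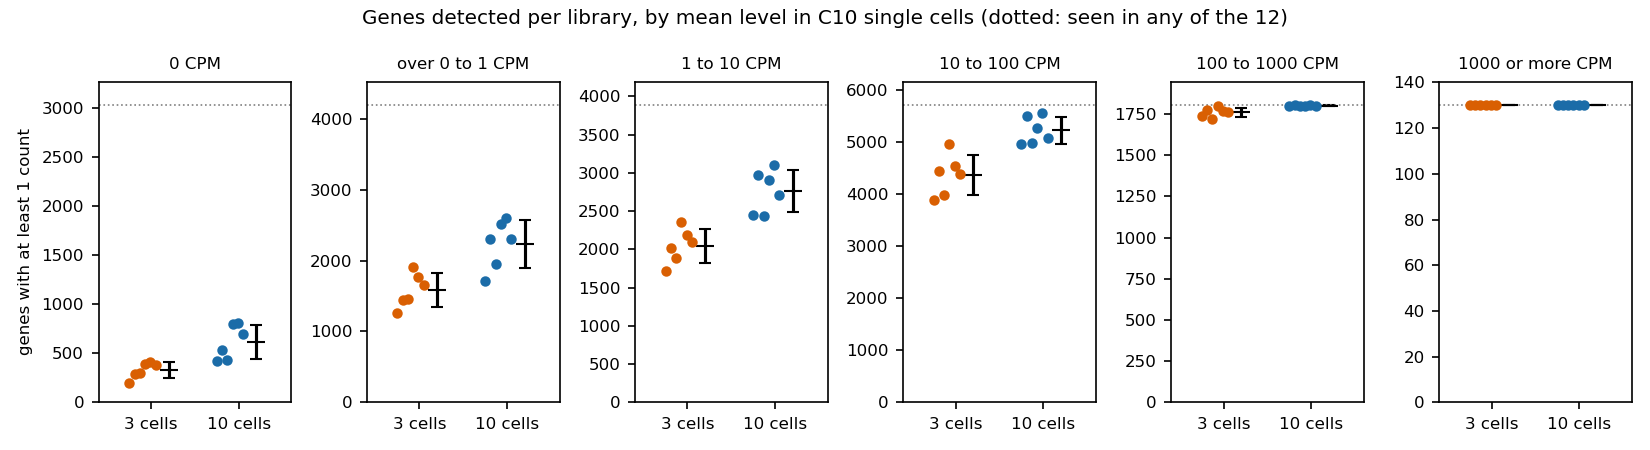
Genes with at least 1 count in each library (vertical axis, linear, from 0), in 6 panels by the mean level of the gene in C10 single cells; points are libraries, orange 3 cells and blue 10 cells, black marks are means with SD, and the dotted line is the number seen in any of the 12. The groups do not overlap at 1 to 10 CPM, where the means are 2042 and 2762, and coincide at 1000 CPM or more.

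The added genes carried few of the reads. The 2890 genes with a count in a 10-cell library and in no 3-cell library took 0.364% ± 0.0874 of the 10-cell counts (SD, n = 6). Genes seen in some but not all of the 3-cell libraries took 13.6% ± 1.41, and the 5204 genes seen in all 6 of them took the rest. In the other direction, 1006 genes had a count with 3 cells and none with 10 cells. Only 46.1% of the genes seen with 10 cells alone, and 36.2% of those seen with 3 cells alone, had a count in any of the 46 single cells, against 83.9% of all genes seen in the 12 libraries.

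Both coding and noncoding genes contributed. Protein-coding genes rose from 8967 ± 795 to 11007 ± 767 per library, or 22.7% (SD, n = 6 each; exact permutation test, adjusted p = 0.00433). Long noncoding RNAs rose from 1022 ± 135 to 1469.8 ± 226, or 43.8%, without overlap between the groups (SD, n = 6 each; exact permutation test, adjusted p = 0.00325). Gene types are those of RefSeq for assembly GRCm38.p6, matched by symbol.

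Gene by gene, detection moved one way far more often than the other. Of 18739 genes with a count in any of the 12 libraries, 9938 (53.0%) were detected in more 10-cell than 3-cell libraries, 2016 (10.8%) in fewer, and 6785 in as many. A gain of at least 4 libraries was seen for 672 genes (3.59%) and a loss of at least 4 for 6 (0.032%). The 672 genes were scarce, with a median of 7 of the 46 single cells holding a count. No single gene passed Fisher's exact test with Benjamini-Hochberg adjustment over 9337 genes (0.0% called), while 134 had an unadjusted p under 0.05, every one of them higher with 10 cells. With 6 against 6 libraries Fisher's exact test cannot go below p = 0.00216, and only 13 genes had the pattern that gives it. After adjustment over 9337 genes the test could therefore hardly call any gene, and the lack of calls is not evidence of unchanged detection.

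There were 13 genes seen in all 6 of the 10-cell libraries and no 3-cell library, and none with the reverse pattern. Among them were Hdac5, a histone deacetylase, at 3.11 to 11.4 CPM (median 3.83), and Zfp820, a zinc finger gene, at 0.135 to 81.7 CPM (median 18.4). Allowing 1 of the 3-cell libraries to hold the gene brought the number to 80. Cep55, which acts in the final cut between daughter cells, was at 2.10 to 90.1 CPM (median 47.5) with 10 cells and had counts in 1 of the 3-cell libraries, at 13.0 CPM. Mgme1, a nuclease that maintains mitochondrial DNA, was at 0.196 to 73.6 CPM (median 35.7) with 10 cells and at 19.1 CPM in 1 of the 3-cell libraries. Kctd20 was at 6.97 to 78.5 CPM (median 36.3) with 10 cells, and in the only 3-cell library that held it the level was higher than in any 10-cell library, 147 CPM. Vwa5a was likewise present in 1 of the 3-cell libraries, at 49.1 CPM, and at 2.61 to 145 CPM (median 14.8) with 10 cells.

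Detection was then followed through gene groups, read against the 53.0% of all genes seen in more 10-cell libraries and the 10.8% seen in fewer. The abundant machinery of the cell was complete or nearly so with 3 cells. All 78 cytosolic ribosomal protein genes that were seen at all, and all 13 protein genes of the mitochondrial genome, were detected in each of the 12 libraries. Of 76 nuclear subunits of oxidative phosphorylation none gained or lost a library, and 75 were in all 12. Proteasome subunits went from 30.7 ± 0.516 to 31 ± 0 per library and translation factors from 47.5 ± 0.548 to 47.8 ± 0.408 (SD, n = 6 each, as for all groups below). Mitochondrial ribosomal proteins, whose mRNAs are less abundant, went from 74.5 ± 1.97 to 76.7 ± 0.816, with 10 of 77 seen in more libraries and 1 in fewer. Mrpl24, a protein of the large mitochondrial subunit, was in 3 of the 3-cell libraries and all 6 of the 10-cell libraries, at 0 to 41.5 CPM (median 17.1) with 3 cells and 14.5 to 52.4 CPM (median 31.6) with 10 cells.

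Metabolic and secretory genes were also nearer to complete detection with 10 cells. Glycolytic enzymes went from 15.5 ± 2.51 to 18.2 ± 0.753 detected, with 8 of 19 in more libraries and 0 in fewer. Pfkl, a phosphofructokinase subunit, was in 2 of the 3-cell libraries and all 6 of the 10-cell libraries, at 0 to 137 CPM (median 0) with 3 cells and 23.6 to 143 CPM (median 48.6) with 10 cells. Genes of cholesterol synthesis and uptake went from 17.8 ± 3.54 to 22.3 ± 1.37, with 14 of 25 in more libraries and 1 in fewer. Tm7sf2, a sterol reductase, had no count with 3 cells and was in 4 10-cell libraries, at up to 55.9 CPM. Chaperones of the endoplasmic reticulum and genes of the unfolded protein response went from 23.8 ± 0.983 to 26.8 ± 0.753, without overlap between the groups, and lysosomal genes from 40.8 ± 1.83 to 44.5 ± 0.548, also without overlap. Npc1, which exports cholesterol from lysosomes, had no count with 3 cells and was in 5 10-cell libraries, at up to 6.29 CPM.

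Among cell cycle and genome maintenance genes, detection was incomplete with 3 cells. S phase genes went from 32.7 ± 4.18 to 40 ± 2 detected of 43, with 21 in more libraries and 1 in fewer. G2/M genes went from 40.7 ± 6.89 to 48.7 ± 5.43 of 54, with 29 in more and 2 in fewer. Cdc6, which loads the replicative helicase, was at 0 to 3.76 CPM (median 0) with 3 cells and 0.120 to 77.5 CPM (median 20.2) with 10 cells, and in 1 of the 3-cell libraries against all 6 of the 10-cell libraries. Kif20b, a mitotic kinesin, was in 3 of the 3-cell libraries and all 6 of the 10-cell libraries, at 0 to 193 CPM (median 0.0357) with 3 cells and 0.120 to 107 CPM (median 12.9) with 10 cells. Its highest level was in a 3-cell library.

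DNA repair genes went from 34.2 ± 5.27 to 46 ± 2.97 detected of 59, with 34 in more libraries and 1 in fewer. Xrcc1, a scaffold of single-strand break repair, was at 0 to 53.2 CPM (median 0) with 3 cells and 27.3 to 52.3 CPM (median 40.2) with 10 cells. It lay at 0 in 4 of the 3-cell libraries and in a narrow band in all 10-cell libraries. Chromatin regulators went from 58.5 ± 5.89 to 71.2 ± 4.92 of 81, with 40 in more and 4 in fewer, and replication-dependent histones from 39.7 ± 4.63 to 49.3 ± 3.33 of 59 seen, with 37 in more and 4 in fewer. The exceptions included Tet1, an enzyme that oxidises methylcytosine, in all 6 of the 3-cell libraries and 3 of the 10-cell libraries, never above 1.67 CPM. Targets of the tumour suppressor p53 and regulators of the G1 phase went from 26.8 ± 1.94 to 31.3 ± 1.03, with 15 of 34 in more libraries and none in fewer. E2f1, which turns on S phase genes, was at 0 to 39.0 CPM (median 0) with 3 cells and 7.99 to 28.3 CPM (median 16.3) with 10 cells, from a single 3-cell library to all 6 of the 10-cell libraries.

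Genes of cell surface and matrix, many of them scarce in these cells, were detected only in part in both groups. Collagens, laminins and other matrix genes went from 29.2 ± 3.06 to 37.7 ± 3.20 detected, without overlap, with 27 of 51 in more libraries and 5 in fewer. Ltbp2, a protein of elastic matrix fibres, had no count with 3 cells and was in 5 10-cell libraries, at up to 21.7 CPM. Integrins went from 11.2 ± 2.86 to 15 ± 3.46 and receptor tyrosine kinases from 23 ± 3.85 to 30.7 ± 3.93, with 29 of 45 kinases in more libraries and 7 in fewer. Itga2b, an integrin subunit known from platelets, went against this, in 3 of the 3-cell libraries at up to 26.9 CPM and in no 10-cell library. Genes of the actin cytoskeleton, which are abundant, hardly moved, from 50.5 ± 0.837 to 51.3 ± 1.21 of 54.

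Signal-response genes and regulators were followed next. Immediate early and AP-1 genes, which cells switch on within minutes of a stimulus, went from 20.8 ± 1.17 to 25.5 ± 2.26 detected, without overlap. Klf2, a transcription factor of this group, went from 1 to 5 libraries, at 0 to 11.0 CPM (median 0) with 3 cells and 0 to 10.2 CPM (median 5.42) with 10 cells. Chemokines and cytokines went from 21.5 ± 3.02 to 26.3 ± 1.75 and interferon-stimulated genes from 21 ± 2.53 to 25.7 ± 1.75, with 18 of 39 in more libraries and 5 in fewer. Isg15, a ubiquitin-like protein of the interferon response, went from 1 to 5 libraries, at 0 to 20.9 CPM (median 0) with 3 cells and 0 to 27.5 CPM (median 9.27) with 10 cells. Hox genes, which record body position, went from 8 ± 1.90 to 11.8 ± 3.13, with 14 of 20 in more libraries. The largest family followed, the Zfp zinc finger genes, went from 181 ± 22.9 to 241 ± 27.9 without overlap, with 212 of 355 in more libraries and 43 in fewer.

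Genes of RNA synthesis and processing and of stress defence were mostly detected already with 3 cells. Spliceosome genes went from 53.3 ± 2.42 to 56.3 ± 0.816 of 57, subunits of RNA polymerase II and Mediator from 36.7 ± 2.50 to 39.2 ± 1.47 of 41, and nuclear pore genes from 23.2 ± 3.19 to 26 ± 1.79 of 28. Heat shock proteins went from 29.2 ± 1.94 to 30.2 ± 0.983 of 32 and targets of NRF2, the regulator of the oxidative stress response, from 25.5 ± 1.05 to 27 ± 0.632 of 28. Among membrane transport genes, solute carriers went from 154 ± 19.5 to 195 ± 18.2 of 289 and potassium, sodium and calcium channels from 32.5 ± 4.37 to 41.8 ± 5.08 of 78. Of the solute carriers, 155 were in more libraries and 33 in fewer.

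The groups also differed in level. The median member, over the genes of the list in the files, was at 618 CPM over the 12 libraries for cytosolic ribosomal proteins, 56.7 CPM for G2/M genes, 38.3 CPM for S phase genes, 37.5 CPM for RNA polymerase II and Mediator, 25.3 CPM for nuclear pore genes, 11.0 CPM for DNA repair genes, 5.20 CPM for Zfp genes and 1.72 CPM for receptor tyrosine kinases. The share of members seen in more 10-cell libraries did not follow this order: it was 53.7% for G2/M genes and 26.8% for the scarcer RNA polymerase II and Mediator genes. No difference between gene groups was tested.

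**Figure D2:**
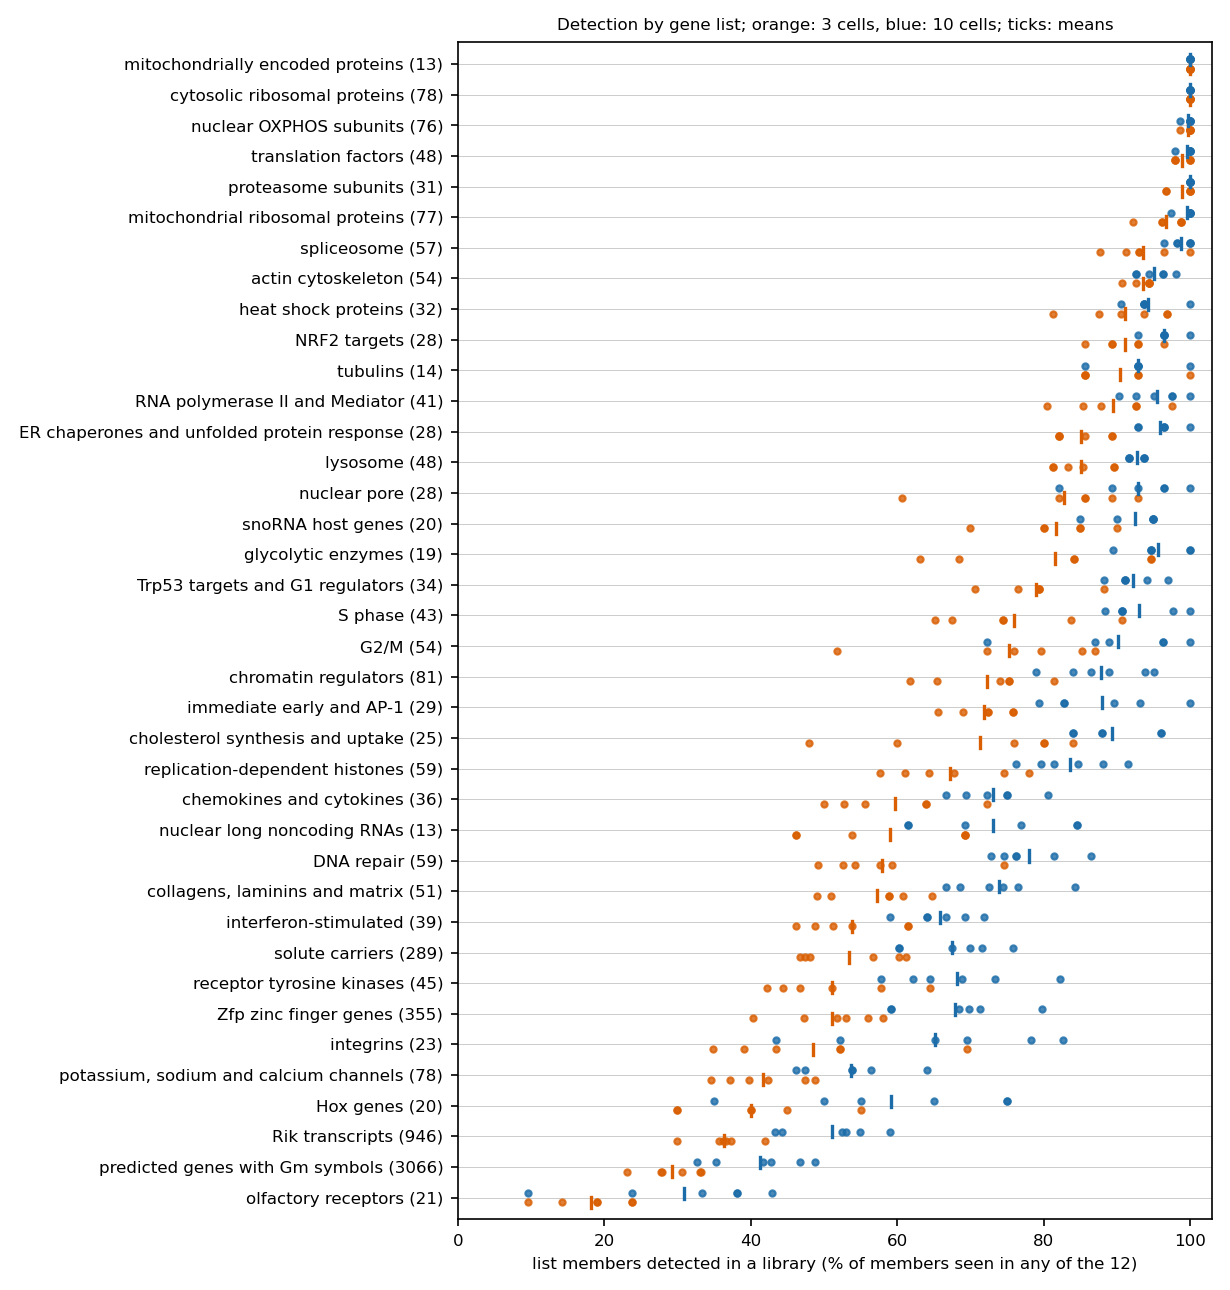
Share of each gene list detected in a library (horizontal axis, % of the members seen in any of the 12 libraries, whose number stands in brackets); each point is a library, orange 3 cells and blue 10 cells, and vertical ticks are group means. Ribosomal and respiratory genes sit at the right edge in both groups, and DNA repair genes move from 34.2 to 46 of 59.

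Mean levels of single genes were compared next, with edgeR's quasi-likelihood test over 13602 genes. No gene passed an adjusted p of 0.05 (0.0% called, smallest adjusted p = 0.210). At an unadjusted p under 0.05 there were 1592 genes, of which 1328 were higher and 264 lower with 10 cells. DESeq2 called 553 genes on the same counts, 500 of them higher with 10 cells, and limma on log2(CPM + 1) called none. The median log2 fold change over all genes was 0.08, against 0.23 with library totals alone and -0.01 with size factors by median of ratios.

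The 3 genes with the smallest p in each direction are given as values. Ube2e2, a ubiquitin-conjugating enzyme, was at 0.191 to 0.623 CPM (median 0.375) with 3 cells and 14.4 to 38.9 CPM (median 25.9) with 10 cells. Its 3-cell libraries held 2 to 8 reads each and its 10-cell libraries 137 to 526, so the groups did not overlap, and 34 of the 46 single cells held a count. The log2 fold change was 5.85 ± 1.10 (SE, n = 6 each; edgeR adjusted p = 0.210). When only genes detected in all 12 libraries were tested, Ube2e2 passed (edgeR adjusted p = 0.00463).

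Necap1, a protein of clathrin-coated vesicles, was at 0 to 0.0713 CPM (median 0) with 3 cells and 0 to 55.1 CPM (median 31.2) with 10 cells. Mms22l, which repairs broken replication forks, was at 0 to 0.0890 CPM (median 0) with 3 cells and 0 to 52.2 CPM (median 44.9) with 10 cells. Each had 1 read in 1 of the 3-cell libraries and 219 to 689 reads in 5 of the 10-cell libraries, and was absent from the sixth. Lower with 10 cells were Spg21, at 322 to 725 CPM (median 520.2) with 3 cells and 217 to 319.6 CPM (median 276) with 10 cells, Lrrfip1, at 281 to 809 CPM (median 452) with 3 cells and 213 to 285 CPM (median 267) with 10 cells, and Tnfaip1, an adaptor of a ubiquitin ligase, at 103 to 315 CPM (median 243) with 3 cells and 48.6 to 148 CPM (median 94.9) with 10 cells. These 3 were detected in every library, and for Spg21 the 2 ranges did not overlap. The standard reference genes differed little: Actb, a cytoskeletal actin, was at 1338 to 3440.4 CPM (median 2071) with 3 cells and 1287 to 2453 CPM (median 2034) with 10 cells, and Gapdh, a glycolytic enzyme, at 2412 to 3953 CPM (median 3341) with 3 cells and 2578 to 3414 CPM (median 3234) with 10 cells.

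No member of any gene group passed the level test. The median log2 fold change, 10 cells over 3 cells, was 0.04 for 78 cytosolic ribosomal proteins, 0.10 for 54 G2/M genes and 0.04 for 43 S phase genes, beside 0.08 for all genes. Among groups with at least 10 genes tested, the lowest medians were those of cholesterol genes, -0.49, and tubulins, -0.43. The highest were those of nuclear long noncoding RNAs, 2.02 over 10 genes, and integrins, 1.11 over 15.

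Libraries of 10 cells resembled each other more than libraries of 3 cells did. The distance of a library was its mean absolute difference in log2(CPM + 1) from the mean of the other libraries of its group. Genes with a mean of at least 10 CPM were used. The distance was 1.85 ± 0.161 with 3 cells and 1.17 ± 0.170 with 10 cells (SD, n = 6 each), without overlap (difference -0.68, exact permutation test, two-sided, p = 0.00216). The difference was -0.317 over genes detected in all 12 libraries, whatever their mean, and -0.333 on log2(CPM + 10). Its size therefore rests on the genes used and on the pseudocount. The 6 distances of a group share libraries and are not independent, which the test does not take into account. The variance between libraries was then taken gene by gene as the squared coefficient of variation (squared CV, the variance divided by the squared mean) of CPM. Over 7615 genes with a mean of at least 10 CPM, its median was 0.877 with 3 cells and 0.374 with 10 cells. The median ratio, 10 cells over 3 cells, was 0.443, with an interquartile range of 0.239 to 0.833, and 80.9% of genes had a ratio under 1. The median thus lay above the 0.3 given by cell number alone. With 6 libraries a squared CV cannot exceed 6, which holds down the 3-cell values of genes found in 1 library.

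The median ratio was under 1 at each level of expression, and nearest to 1 for the scarcest genes. It was 0.831 for the 6 genes at 0 in single cells that reached a mean of 10 CPM, 0.687 for the 47 genes above 0 and up to 1 CPM, 0.503 at 1 to 10 CPM, 0.426 at 10 to 100 CPM, 0.453 at 100 to 1000 CPM and 0.570 for the 130 genes at 1000 CPM or more. The starting point differed far more than the ratio: the median squared CV with 3 cells was 2.14 at 1 to 10 CPM and 0.0775 at 1000 CPM or more. Among genes at 100 to 1000 CPM, those that varied most between single cells lost the most. Their median ratio was 0.510 in the quartile with the lowest squared CV over the 46 single cells, then 0.456, 0.433 and 0.390 in the quartile with the highest. At 10 to 100 CPM there was no such order, with 0.429, 0.423, 0.392 and 0.453. On the variance of log2(CPM + 1) the order there was the opposite, with 0.315, 0.386, 0.495 and 0.594 from the lowest quartile to the highest. At 100 to 1000 CPM that measure gave 0.523, 0.426, 0.366 and 0.233. The relation to variation between single cells thus differed with the level and the measure. Long noncoding RNAs had a median ratio of 0.561 (239 genes) and protein-coding genes one of 0.439 (7331 genes). These medians describe genes and were not tested against each other.

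A test of spread was made for each of 7629 genes with a mean of at least 10 CPM, by limma on the absolute deviations of log2(CPM + 1) from the group mean. The spread was lower with 10 cells for 681 genes (8.93%) and higher for 29 (0.38%) at an adjusted p under 0.05. Of the 681, 534 were missed by at least 1 of the 3-cell libraries, 644 were in all 6 of the 10-cell libraries and 146 were in all 12. Testing genes with a mean of at least 1 CPM gave 876 lower and 659 higher, so the balance between the directions rests on the filter. The test also made calls on simulated counts in which nothing had changed, so a single call is weak evidence.

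The genes with the largest loss of spread were present at a high level in some 3-cell libraries and at or near 0 in the others. Mtap, of methionine salvage, was at 0 to 462 CPM (median 238) with 3 cells and 199.9 to 290.0 CPM (median 237) with 10 cells, with 2 of the 3-cell libraries at 0 and 4 between 214 and 462 CPM. Its mean deviation was 4.05 with 3 cells and 0.18 with 10 cells on the log2 scale (difference -3.87 ± 0.62, SE; limma adjusted p = 0.00226). Idh1, the cytosolic isocitrate dehydrogenase, was at 0 to 287 CPM (median 76.6) with 3 cells and 43.1 to 115 CPM (median 87.1) with 10 cells, with 3 of the 3-cell libraries at 0 (limma adjusted p = 7.77e-06). Mdm2, the ubiquitin ligase that degrades p53, was at 0 to 399 CPM (median 21.9) with 3 cells and 88.4 to 174 CPM (median 126) with 10 cells, again with 3 of the 3-cell libraries at 0 (limma adjusted p = 0.000326). The group means of Mdm2 were 106 CPM and 134 CPM, so its 3-cell libraries lay on both sides of a similar mean. The test sets the deviations against their own scatter, and an even split between 0 and high levels makes the deviations alike. The small p-values of Idh1 and Mdm2 therefore partly restate presence against absence. Tbrg1 was at 0 to 462 CPM (median 229) with 3 cells and 89.6 to 293 CPM (median 178) with 10 cells (limma adjusted p = 0.00432), and Slc25a46, a protein of the outer mitochondrial membrane, at 0 to 211 CPM (median 76.3) with 3 cells and 13.9 to 56.3 CPM (median 36.8) with 10 cells (limma adjusted p = 1.84e-05). The calls for Mtap and Tbrg1 were lost when a 3-cell library at 0 was left out, replicate 5 or 10 for Mtap (limma adjusted p = 0.108 and 0.103) and replicate 1 or 5 for Tbrg1 (limma adjusted p = 0.141 and 0.146).

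The 5 genes with the largest gain of spread were at or near 0 in every 3-cell library. They passed the filter on mean level through the 10-cell libraries alone, so the calls restate presence against absence, and the genes are given as values without a test. Bmt2, a methionine-pathway sensor of the mTORC1 kinase, was at 0 to 0.499 CPM (median 0) with 3 cells and 0 to 82.9 CPM (median 17.7) with 10 cells, with 3 of the 10-cell libraries at 0. Zscan21, a zinc finger transcription factor, was at 0 to 0.0713 CPM (median 0) with 3 cells and 0.0740 to 57.3 CPM (median 21.6) with 10 cells, and Plxna2, a semaphorin receptor, at 0 to 0.0954 CPM (median 0) with 3 cells and 0 to 55.0 CPM (median 26.7) with 10 cells. Lce1g, a gene of the cornified skin envelope, and Abca8b, a membrane transporter, had no count with 3 cells and were in 3 of the 10-cell libraries each, at up to 93.9 and 96.1 CPM.

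**Figure D3:**
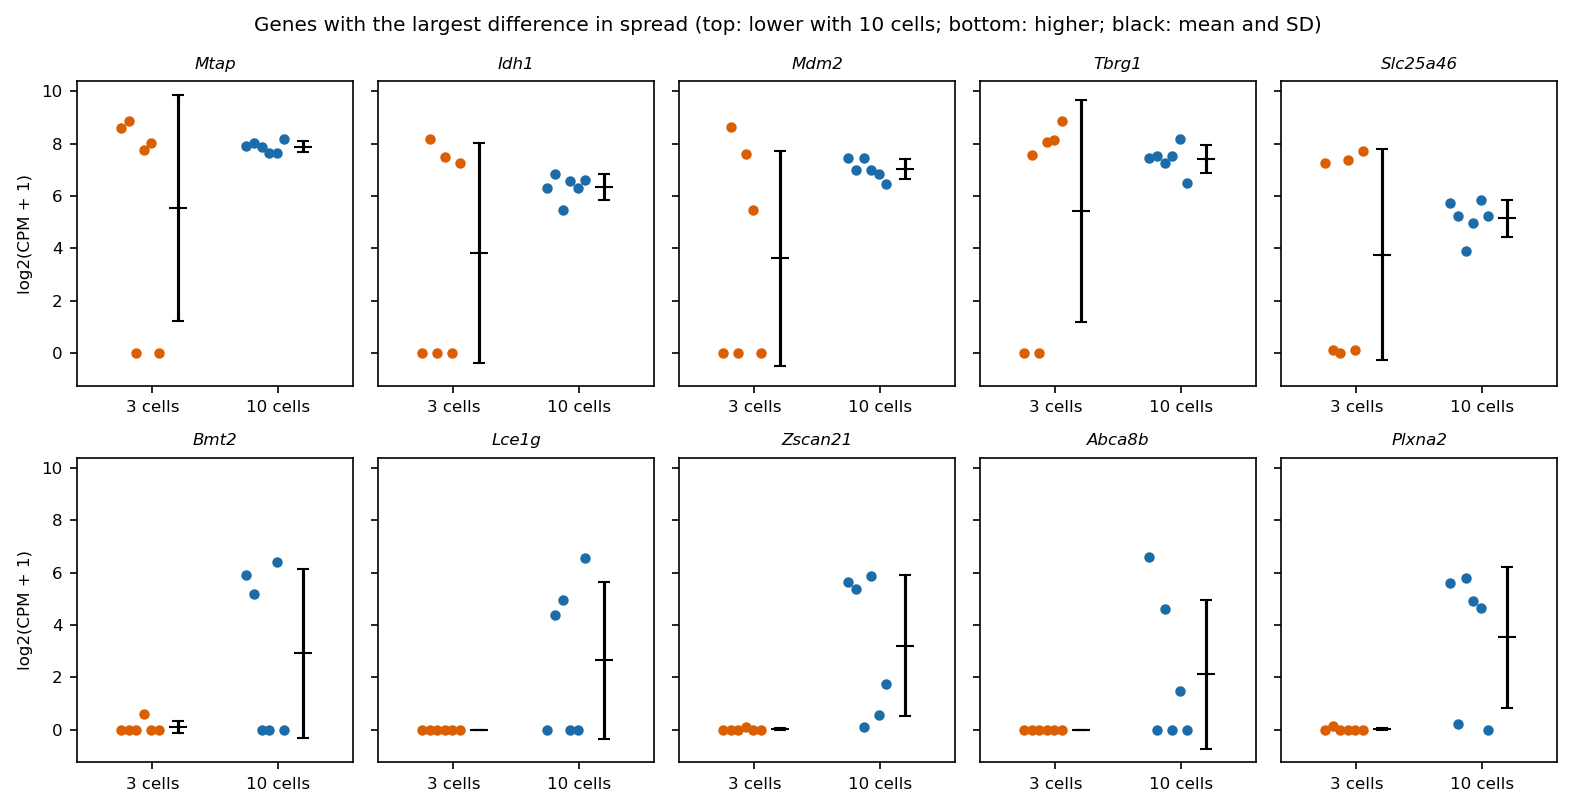
Levels of 10 genes in each library as log2(CPM + 1) (vertical axis); points are libraries, orange 3 cells and blue 10 cells, and black marks are means with SD. In the top row the 3-cell libraries split between 0 and high values while the 10-cell libraries lie close together; in the bottom row the 3-cell libraries lie at or near 0.

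The ratios were then read by gene group. Cytosolic ribosomal proteins had a median squared CV of 0.0648 with 3 cells and a median ratio of 0.510, beside 0.443 for all genes. Without both libraries numbered 1 the order turned, with 0.352 beside 0.429. Members ranged widely. Rpl15, of the large ribosomal subunit, was at 189 to 674 CPM (median 292) with 3 cells and 375 to 439 CPM (median 409.8) with 10 cells, and Rps2, of the small subunit, at 1091 to 1269 CPM (median 1188) with 3 cells and 851 to 1525 CPM (median 1220.0) with 10 cells, so Rpl15 varied less with 10 cells and Rps2 more. Nuclear subunits of oxidative phosphorylation had a median ratio of 0.561, and protein genes of the mitochondrial genome one of 0.652. Ndufa9, a complex I subunit, was at 33.2 to 337 CPM (median 157) with 3 cells and 148 to 249.7 CPM (median 217) with 10 cells. The mitochondrial ribosomal RNA mt-Rnr2 was at 11773 to 66532 CPM (median 31819.7) with 3 cells and 19878 to 83936 CPM (median 31301) with 10 cells, with a squared CV ratio of 1.14, and its highest library was the one numbered 1 in each group.

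For cell cycle genes the median ratio of squared CVs was 0.372 for 49 G2/M genes, 0.386 for 34 S phase genes, 0.378 for 19 histones and 0.359 for 26 p53 targets and G1 regulators. On the variance of log2(CPM + 1) the G2/M and S phase ratios, 0.518 and 0.523, lay above the 0.472 of all genes. Without both libraries numbered 1 the histone ratio was 0.575, above the 0.429 of all genes. Of the 49 G2/M genes, 42 (85.7%) had a ratio under 1, near the 80.9% of all genes. The spread test was passed by 2 of them (4.08%), beside 8.93% of all genes tested. Cks2, a regulator of mitotic kinases, was at 4.94 to 216 CPM (median 40.6) with 3 cells and 58.1 to 223 CPM (median 163) with 10 cells. Hmmr, a spindle-associated protein, went the other way, at 11.1 to 129.8 CPM (median 93.2) with 3 cells and 0 to 238 CPM (median 31.5) with 10 cells, with 1 of the 10-cell libraries at 0. Pcna, the sliding clamp of DNA replication, was at 44.7 to 392 CPM (median 279) with 3 cells and 153 to 366 CPM (median 329.6) with 10 cells, and Nasp, a histone chaperone, at 32.9 to 237 CPM (median 92.3) with 3 cells and 81.4 to 122 CPM (median 97.3) with 10 cells.

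The lowest median ratios belonged to cholesterol genes, 0.267 over 20 genes, and tubulins, 0.278 over 12. The cholesterol value lay between 0.267 and 0.592 under the other settings, and that of the tubulins lay between 0.223 and 0.297. All 12 tubulins had a ratio under 1, beside 80.9% of all genes. Tuba1a, an abundant alpha-tubulin, was at 880.3 to 2082 CPM (median 1124) with 3 cells and 685 to 1167 CPM (median 825) with 10 cells. Sqle, an early enzyme of sterol synthesis, was at 6.97 to 727 CPM (median 77.6) with 3 cells and 66.1 to 177 CPM (median 104) with 10 cells, with 1 of the 3-cell libraries far above the rest. Msmo1, a later enzyme of the same pathway, was at 87.9 to 354 CPM (median 194) with 3 cells and 56.5 to 389 CPM (median 208) with 10 cells, with a ratio of 1.77. Proteasome subunits had a median ratio of 0.353, and Psma1, one of its core subunits, was at 0 to 422 CPM (median 281) with 3 cells and 286 to 401 CPM (median 354) with 10 cells, with 1 of the 3-cell libraries at 0.

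Among stress and signalling genes the median ratio was 0.413 for endoplasmic reticulum chaperones, 0.466 for heat shock proteins, 0.611 for NRF2 targets, 0.528 for immediate early genes and 0.419 for chemokines and cytokines. On the variance of log2(CPM + 1) that of immediate early genes was 0.288. Dnajc3, an endoplasmic reticulum co-chaperone, was at 0 to 105 CPM (median 37.2) with 3 cells and 49.7 to 85.5 CPM (median 60.0) with 10 cells and passed the spread test (limma adjusted p = 0.0109). Hsp90aa1, a stress-inducible chaperone, was at 39.0 to 1075 CPM (median 651) with 3 cells and 584 to 820.5 CPM (median 726) with 10 cells, with 1 of the 3-cell libraries far below the rest. Klf6, an immediate early transcription factor, was at 5.44 to 345 CPM (median 98.2) with 3 cells and 128 to 251 CPM (median 174) with 10 cells and passed the test (limma adjusted p = 0.0199). Cxcl5, which attracts neutrophils, was at 0 to 56.4 CPM (median 6.66) with 3 cells and 6.48 to 69.4 CPM (median 38.3) with 10 cells and passed it as well (limma adjusted p = 0.0193), while Ccl7, which attracts monocytes, was at 449 to 958 CPM (median 730.3) with 3 cells and 691 to 2560.0 CPM (median 1313) with 10 cells and had a squared CV ratio of 2.31. Other genes that passed were Cat, the peroxide-degrading catalase, at 0 to 165 CPM (median 42.8) with 3 cells and 16.2 to 76.8 CPM (median 36.5) with 10 cells (limma adjusted p = 2.36e-05), and Slc3a2, a subunit of amino acid transporters, at 152 to 889 CPM (median 464) with 3 cells and 418 to 492 CPM (median 431) with 10 cells (limma adjusted p = 0.0279).

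Calls of the spread test were few in each group and are given beside the 8.93% of all genes with lower spread, with no test between groups. Lower spread with 10 cells was called for 16 of 109 solute carriers (14.7%), 4 of 26 endoplasmic reticulum genes (15.4%), 4 of 39 lysosomal genes (10.3%) and 9 of 135 Zfp genes (6.67%). It was called for 0 of 77 cytosolic ribosomal proteins, 0 of 76 respiratory subunits, 0 of 31 proteasome subunits and 0 of 28 matrix genes. Kat2b, a histone acetyltransferase, was at 0.0890 to 103 CPM (median 18.1) with 3 cells and 15.9 to 45.6 CPM (median 36.7) with 10 cells (limma adjusted p = 0.0107), and Twist2, a transcription factor of mesenchymal cells, at 0 to 84.3 CPM (median 6.93) with 3 cells and 4.33 to 18.6 CPM (median 14.3) with 10 cells (limma adjusted p = 0.00611). Little or none of Twist2 was found in 3 of the 3-cell libraries, and the 10-cell libraries of both genes lay inside their 3-cell range.

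Noncoding RNAs and matrix genes were mixed. Snhg5, a host gene of small nucleolar RNAs, was at 0 to 49.0 CPM (median 0.0938) with 3 cells and 38.1 to 50.6 CPM (median 46.3) with 10 cells (limma adjusted p = 0.00263). It was at or near 0 in 4 of the 3-cell libraries and in a narrow band in all 10-cell libraries. Nuclear long noncoding RNAs had a median ratio of 0.895 over 6 genes, and between 0.581 and 1.19 under the other settings, the only list of at least 5 genes that passed 1. Malat1, an abundant RNA of nuclear speckles, was at 70.3 to 627 CPM (median 214) with 3 cells and 116 to 12026 CPM (median 429) with 10 cells. Its 10-cell maximum was in replicate 9. Matrix genes had a median ratio of 0.504, and their members differed: Sparc, a collagen-binding glycoprotein, was at 908 to 4128 CPM (median 1941) with 3 cells and 2203 to 3170.0 CPM (median 2857) with 10 cells, and Col5a1, a fibrillar collagen, at 4.54 to 47.6 CPM (median 39.4) with 3 cells and 0.148 to 153 CPM (median 24.5) with 10 cells.

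**Figure D4:**
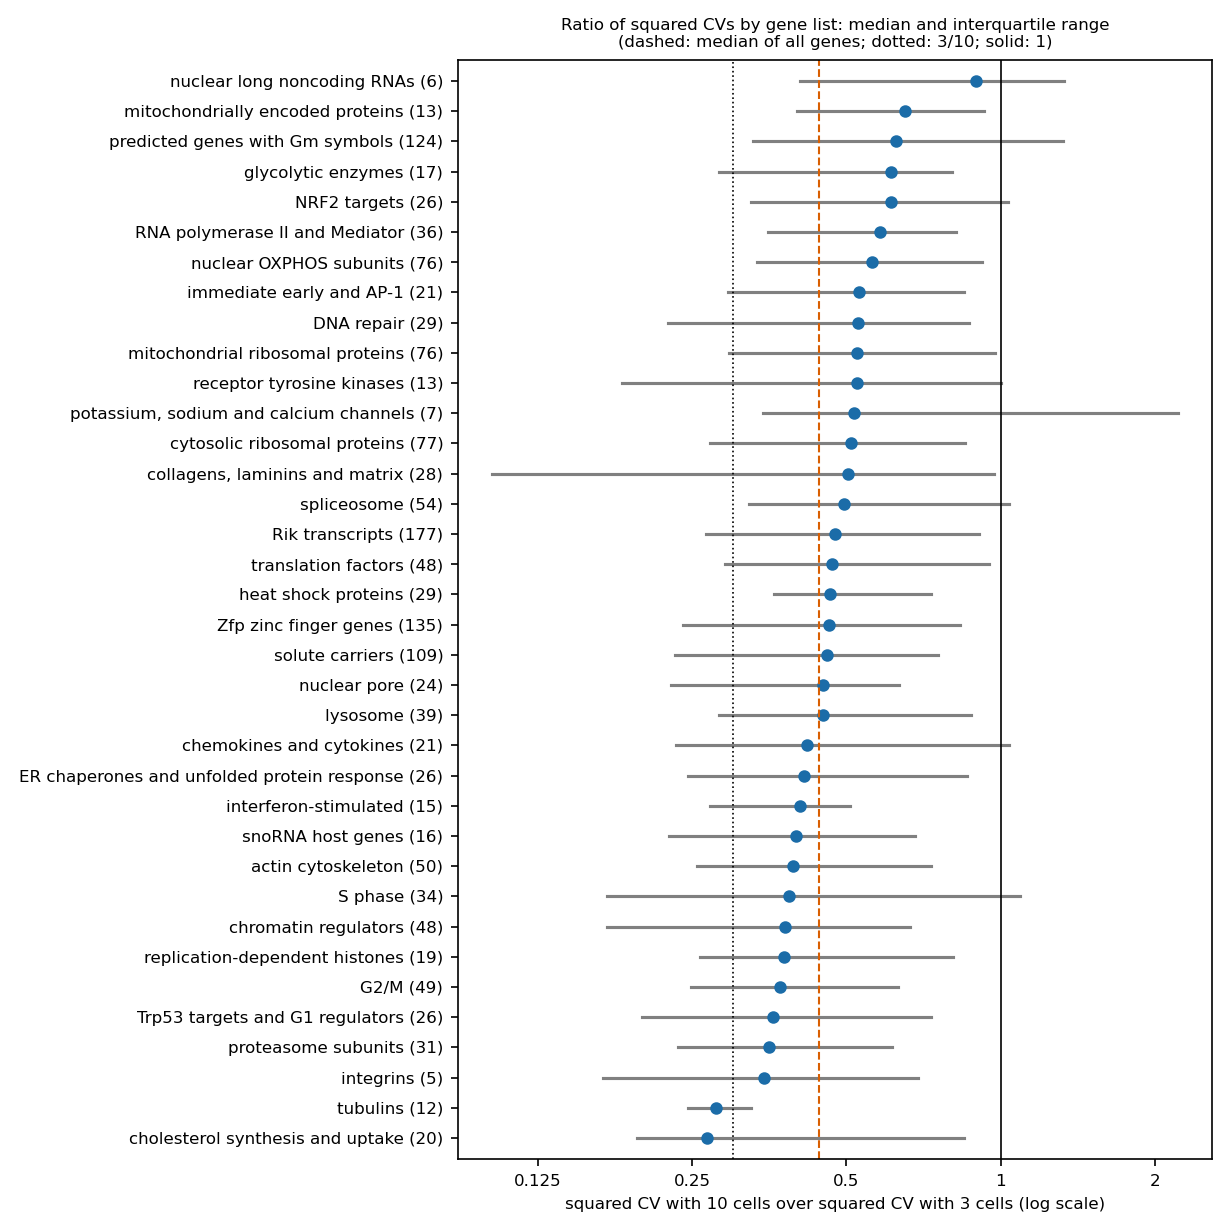
Ratio of the squared CV with 10 cells to that with 3 cells (horizontal axis, log scale) for gene lists with at least 5 members at a mean of 10 CPM or more, their number in brackets; dots are medians, grey bars interquartile ranges, and the dashed line is the median of all genes. Every median lies left of 1, and the tubulins lie near the dotted line at 0.3.

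The members of a list were also summed within each library, a sum that its most abundant members dominate. The G2/M sum was 1293 to 8276 CPM with 3 cells and 2145 to 8152 CPM with 10 cells, with a coefficient of variation of 62.1% and 41.2%. The highest and lowest libraries of both groups thus lay several-fold apart even with 10 cells. The S phase sum had 26.4% and 24.3%, and the histone sum, at 233 to 1081 CPM with 3 cells and 587 to 1076 CPM with 10 cells, had 58.0% and 25.1%. Immediate early genes summed to 1436 to 3741 CPM with 3 cells and 1609 to 2708 CPM with 10 cells, with 42.6% and 17.3%. Without 3-cell replicate 6 the first of these was 22.3%, and without 10-cell replicate 10 the second was 8.96%. Actin cytoskeleton genes summed to 25222 to 52103 CPM with 3 cells and 31354 to 42317 CPM with 10 cells, with 26.1% and 10.9%, and nuclear pore genes, at 831 to 2291 CPM with 3 cells and 1201 to 1797 CPM with 10 cells, had 40.5% and 15.2%.

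For some lists the summed variation was not lower with 10 cells or rested on 1 library. Cholesterol genes summed to 905 to 3669 CPM with 3 cells and 877 to 1686 CPM with 10 cells, with 64.9% and 25.8%, but without 3-cell replicate 2 the first value was 15.3%, so the order turned. Glycolytic enzymes had 13.9% and 17.7%, and without 3-cell replicate 1 the first was 3.60%. Heat shock proteins had 23.7% and 16.7%, with 7.72% without 3-cell replicate 6, and integrins 40.6% and 27.9%, with 11.2% without that library, which turned the order of both. The 2 mitochondrial ribosomal RNAs summed to 14002 to 80364 CPM with 3 cells and 23365 to 101612 CPM with 10 cells, with 59.2% and 63.2%. Without 10-cell replicate 1 the latter was 30.6%. Nuclear long noncoding RNAs had 62.0% and 166%, and still 100.5% without 10-cell replicate 9. Higher with 10 cells too were predicted genes with Gm symbols (13.7% and 26.7%), Hox genes (23.6% and 34.8%) and epithelial markers (89.5% and 130%). Smaller rises were seen for NRF2 targets (24.5% and 26.8%), the spliceosome (14.6% and 16.1%), chemokines and cytokines (24.1% and 25.6%) and mitochondrial ribosomal proteins (6.90% and 7.49%). The rises from the Gm symbols on were not recomputed with 1 library left out, and some may rest on 1 library. NRF2 targets were at 18902 CPM in 10-cell replicate 1 (the others 31036 to 44378). The spliceosome was at 7271 CPM in 10-cell replicate 10 (the others 9362 to 11749). Epithelial markers were at 121 CPM in 10-cell replicate 6 (the others 5.69 to 37.3). Host genes of small nucleolar RNAs hardly moved (19.3% and 19.6%), and the lists not named here had lower values with 10 cells. Cytosolic ribosomal proteins were steady in both groups, with 10.8% and 8.99%. No test was made of these sums.

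**Figure D5:**
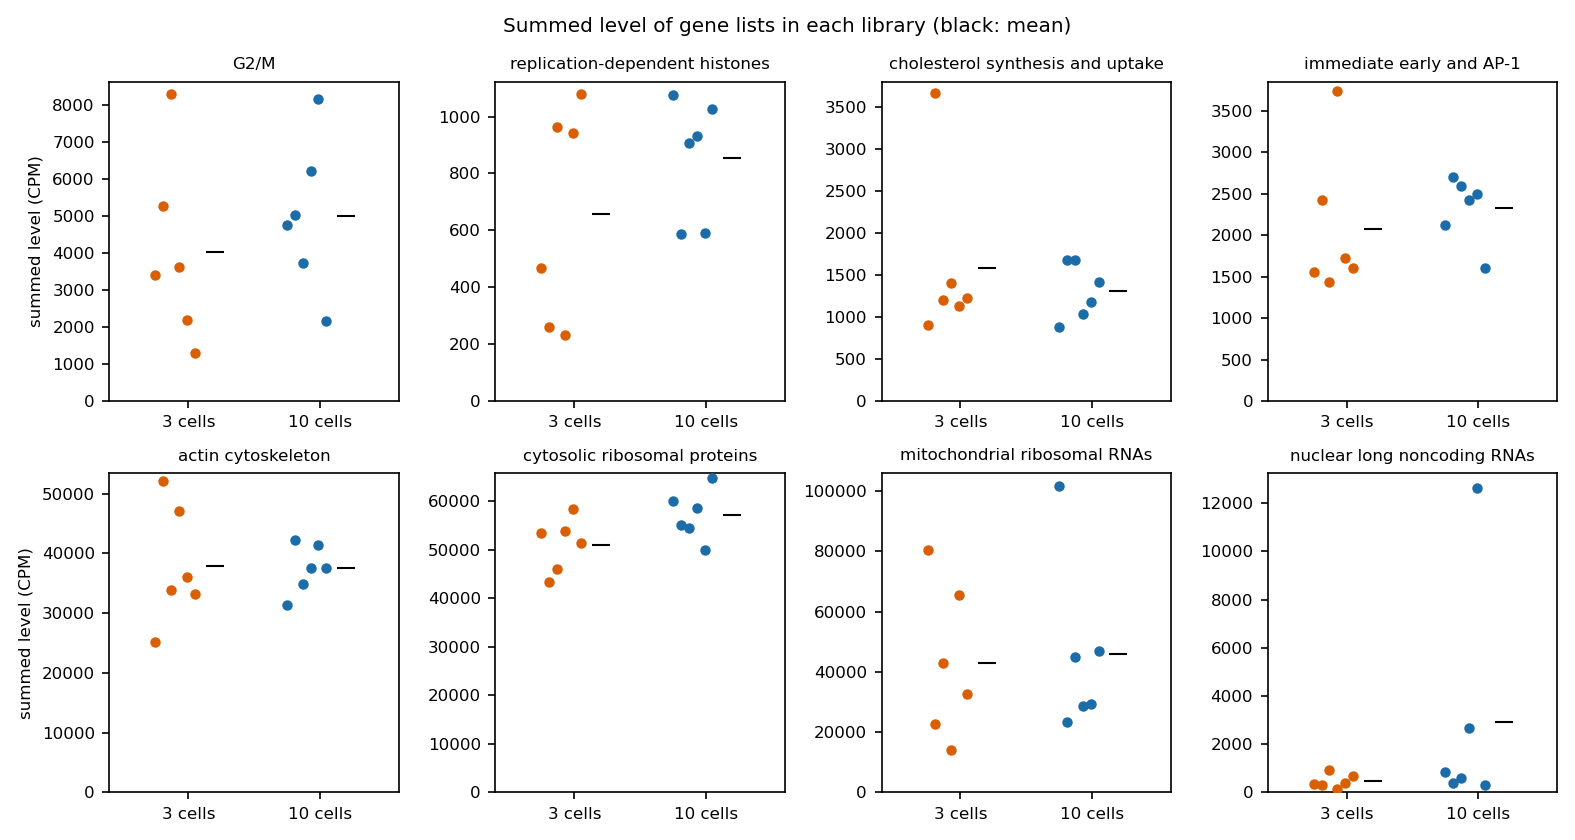
Summed level of 8 gene lists in each library in CPM (vertical axes, linear, from 0); points are libraries, orange 3 cells and blue 10 cells, and black marks are means. The actin sums draw together with 10 cells while the G2/M sums stay spread, and single libraries stand apart for cholesterol genes (3 cells) and for both noncoding RNA lists (10 cells).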

How the data were processed

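Whole transcripts were copied to cDNA with the SMART-Seq v4 Plus kit, per the labels' protocols, and read from one end over 150 bases on a NextSeq machine. The submitters' processing notes name FastQC, STAR and HTSeq without versions; the genome build, annotation and strand setting are not given in the sources used here. The deposited files hold the authors' raw read count for each of 40202 gene symbols and 5 counters of unassigned reads, which were left out of totals and tests; reads not aligned took 14.6% to 24.9% of all reads counted. Overlapping genes and near-identical copies may share or lose reads, and without a stated strand setting antisense pairs cannot be told apart.

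From the counts, CPM and log2(CPM + 1) were computed here. A gene was detected at 1 count or more. Levels were tested with edgeR's quasi-likelihood test (TMM factors, genes with counts in 3 or more libraries of at least 1 group), spread with limma on absolute deviations, and single values with exact two-sided permutation tests over 924 splits; p-values were adjusted by Benjamini-Hochberg over all genes, or over the strata or gene types. The versions were R 4.3.3, edgeR 4.0.16, limma 3.58.1 and DESeq2 1.42.0. The fits used the 12 libraries alone, except 1 alternative with 8 single-cell-input C10 libraries added; the other alternatives changed the detection threshold, depth, normalization, filter, tool, pseudocount, pairing or libraries. Strata came from 46 of 48 C10 single-cell libraries, those with at least 1000 counts. On simulated counts the level test made almost no false calls and found only part of the changed genes, DESeq2 made many false calls, and the spread test found few of the changed genes and made some false calls.

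The comparison, the gene lists and the rule for named genes (for each list the most abundant member, the largest gain and loss of libraries and the lowest and highest variance ratio; the top genes of each test; Malat1, Actb and Gapdh) were chosen with earlier results of these data known. The histone list was respelled after the files were read, since the older symbols matched no gene; Mx1 and Mx2 matched none. RefSeq listed 38730 of the 40202 symbols. The second gene called when only genes detected in all 12 libraries were tested is not reported here.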

Additional observations from a re-analysis of the deposited data

Results flagged for a closer look

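Single libraries stood apart from the other 5 of their group in 9 of 92 groups of values examined, by the gap to the nearest library against the whole range. Chance flags about 1 in 20 groups, or 4.60 of 92, and several of these values share genes or a library. Among the 10-cell libraries, replicate 1 had 17.8% of its counts in mitochondrial genes (the others 6.83% to 10.6%) and 101612 CPM in mitochondrial ribosomal RNAs (the others 23365 to 46936). Replicate 9 had 1.20% of its counts in Malat1 (the others 0.0116% to 0.217%) and 12626 CPM in nuclear long noncoding RNAs (the others 302 to 2660.5).

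Among the 3-cell libraries, replicate 1 had the least of the glycolytic enzymes, 8574 CPM against 11991 to 12984 in the others. Replicate 2 had 3669 CPM of cholesterol genes, against 905 to 1401. Replicate 6, which also had the most genes detected of its group, had 18447 CPM of heat shock proteins, against 10495 to 12588, and 1373 CPM of integrins, against 554 to 730.2. Replicate 10 had 23.1 CPM of olfactory receptors, against 1.89 to 4.87. Whether these values reflect the cells or the making of the libraries was not tested.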

How the results depend on the processing

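No tested result changed direction under the settings run. The count of genes changed in level was 553 with DESeq2 and 2 among genes detected in all 12 libraries, and 0 under the other settings, leave-one-out included (0 to 0). The count of genes changed in spread was 124 (23 higher, 101 lower) among genes detected in all 12 libraries, 286 (33 higher, 253 lower) on log2(CPM + 10), and 1535 at a mean of at least 1 CPM; leaving out 1 library gave 499 (without 10 cells replicate 2) to 777 (without 3 cells replicate 6). The call for Tbrg1 was also lost without both libraries numbered 1 (limma adjusted p = 0.202). The median variance ratio was 0.472 for log2(CPM + 1), 0.504 at a mean of at least 1 CPM, and 0.397 (without 10 cells replicate 1) to 0.487 (without 3 cells replicate 5) with 1 library left out. Among genes detected in all 12 libraries it was 0.530 whatever their mean level, and 0.478 for the 3974 of them with a mean of at least 10 CPM. The difference in genes detected was 2349 at 1 CPM or more, and 2295 to 2817 with 1 library left out. The cause of these shifts was not tested. Lists of CV ratios, named genes and the CVs of some summed lists were recomputed under settings chosen after seeing the data.

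Gene by gene, same-numbered libraries of the 2 groups did not deviate together (correlations -0.0197 to 0.0572, with 2 of 6 libraries closest to their own number). The numbers were therefore not taken as pairs in the main tests. The number of genes detected did run together by number. Replicates 1 and 5 had the fewest in both groups, 8933 and 9467 with 3 cells and 11477 and 11722 with 10 cells. Replicates 6 and 9 had the most in both. Replicate 1 also had the lowest total of both groups. Whether the numbers mark a shared batch was not tested. With a replicate block the difference in genes detected stayed 2550.5 (exact sign-flip test, p = 0.03125, the smallest that 6 pairs allow), the distance difference stayed -0.68 (exact sign-flip test, p = 0.03125), and edgeR called 0 genes. Pools may share cultures and reads lack molecular identifiers, so neither p-values nor zeros measure biological spread or absence alone.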

Other observations

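Genes of poorly characterised classes were seen more widely with 10 cells too. Predicted genes with Gm symbols went from 897 ± 118 to 1267 ± 192 per library (SD, n = 6 each), and 1809 of 3066 were in more 10-cell libraries and 592 in fewer. Transcripts with Rik symbols went from 343 ± 36.5 to 484 ± 58.3, without overlap, with 579 of 946 in more libraries and 139 in fewer. Their median squared CV ratios were 0.624 and 0.475. Of 1105 olfactory receptor genes, which are read in the nose, 21 had a count in any of the 12 libraries, with 3.83 ± 1.17 to 6.50 ± 2.59 per library and a summed level of 1.89 to 23.1 CPM with 3 cells and 2.05 to 62.1 CPM with 10 cells.

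Markers of blood vessels and blood cells were few. Of 18 endothelial markers, 11 were seen, 5 ± 1.26 to 7 ± 0.632 per library, with a summed level of 2.14 to 27.9 CPM with 3 cells and 1.92 to 11.5 CPM with 10 cells. Of 15 leukocyte and red cell markers, 5 were seen, 1.33 ± 1.03 to 2 ± 1.10 per library, and the pan-leukocyte gene Ptprc and the T cell gene Cd3e had no count. The epithelial markers went from 3.67 ± 1.21 to 6 ± 0.894 per library and the mesenchymal markers from 11.5 ± 1.64 to 13.5 ± 1.38.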
